A study of Homo sapiens with 8 samples.

Results

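The PGC1 coactivators and the nuclear receptors they work with were followed through 10 genes: the coactivators PPARGC1A, PPARGC1B and PPRC1, the estrogen-related receptors ESRRA and ESRRG, the fatty acid receptors PPARA, PPARD and PPARG, their partner receptor RXRA, and the corepressor NRIP1. Members were chosen by gene symbol in the probe table of the array, and every probe set that carried 1 of these symbols alone was kept. The choice gave 16 probe sets of the 22215 tested, for 9 of the 11963 genes with a probe set of their own, and PPARGC1B had none in the table used here. A375P is a human melanoma cell line, and each of the 8 arrays held RNA of A375P cells that carried 1 lentiviral short hairpin RNA. The 4 control arrays were 2 with shGFP and 2 with shScr, which some sample titles name shRNA-control, and the 4 PGC1α arrays were 2 with PGC1a shRNA 65 and 2 with PGC1a shRNA 66, called hairpin 65 and hairpin 66 here. Both arms had therefore been through lentiviral integration and 48 h of puromycin, and RNA was taken 48 h after that selection. The sources used here do not say whether a line is a clone or a pool, or whether the 2 arrays of a hairpin came from separate cultures.

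PGC1 coactivators do not bind DNA themselves. They dock on nuclear receptors and other transcription factors and bring in histone acetyltransferases and the Mediator complex, which raises transcription of genes for mitochondrial respiration and fatty acid oxidation. PGC1α, the product of PPARGC1A, is transcribed in a subset of melanomas under the melanocyte factor MITF, and it is also known to raise transcription of its own partner ERRα, the product of ESRRA.

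The stretches just upstream of the start sites of PPARGC1A, ESRRA and PPARG are shown because these are the targeted gene, the receptor that PGC1α is known to raise and the receptor that rose, and each holds a match to a searched motif. They were picked after the matches were known, and the ESRRG windows, of which 2 also hold a match, are not shown. Each window is the 250 bases before a RefSeq transcription start, 5′ to 3′ on the gene's own strand, from assembly GRCh38.p14, and capitals mark the matches. PPARGC1A start 1 lies at chr4:24472906-24473155 on the minus strand, PPARGC1A start 2 at chr4:23881102-23881351 on the minus strand, ESRRA at chr11:64305274-64305523 on the plus strand and PPARG start 1 at chr3:12287118-12287367 on the plus strand.
PPARGC1A start 1: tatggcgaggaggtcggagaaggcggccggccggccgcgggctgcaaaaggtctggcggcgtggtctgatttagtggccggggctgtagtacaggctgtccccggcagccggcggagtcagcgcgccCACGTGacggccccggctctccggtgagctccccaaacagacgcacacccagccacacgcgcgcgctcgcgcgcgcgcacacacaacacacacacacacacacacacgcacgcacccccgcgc
PPARGC1A start 2: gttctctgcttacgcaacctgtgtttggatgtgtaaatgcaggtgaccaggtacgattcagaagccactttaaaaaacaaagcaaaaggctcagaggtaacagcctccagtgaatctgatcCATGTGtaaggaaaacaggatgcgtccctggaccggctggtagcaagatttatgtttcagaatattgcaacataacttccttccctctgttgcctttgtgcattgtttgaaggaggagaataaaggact
ESRRA: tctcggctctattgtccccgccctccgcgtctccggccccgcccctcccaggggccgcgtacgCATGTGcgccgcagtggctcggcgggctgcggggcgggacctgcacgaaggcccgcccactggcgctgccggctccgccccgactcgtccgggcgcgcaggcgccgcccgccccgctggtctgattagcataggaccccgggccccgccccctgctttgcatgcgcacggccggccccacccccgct
PPARG start 1: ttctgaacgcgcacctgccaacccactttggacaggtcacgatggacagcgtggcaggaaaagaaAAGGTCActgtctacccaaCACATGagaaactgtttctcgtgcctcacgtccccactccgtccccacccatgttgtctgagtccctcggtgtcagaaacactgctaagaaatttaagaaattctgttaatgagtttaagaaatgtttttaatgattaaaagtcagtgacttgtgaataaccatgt

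Searched on both strands were AAGGTCA, the core of the element that ERR receptors bind, and CACGTG and CATGTG, the E-box forms that MITF binds. The 10 members had 27 such windows in the RefSeq table, out of 35116 windows in all. AAGGTCA was held by 3.44% of all windows, CACGTG by 6.34% and CATGTG by 9.42%. The upstream start of PPARGC1A held CACGTG, which began 123 bases before the start, and its downstream start held CATGTG at 129 bases. The ESRRA window held CATGTG at 187 bases and no AAGGTCA. At the first PPARG start, AAGGTCA began 185 bases and CACATG, the other strand of CATGTG, 166 bases before the start. AAGGTCA was found in 3 of the 6 PPARG windows, the copies in starts 2 and 3 being the same bases in overlapping windows, and in 1 of the 8 ESRRG windows. CACATG or CATGTG was also found in PPARG starts 5 and 6. In ESRRG start 6, AAGGTCA began 61 bases and CATGTG 56 bases before the start, so the matches overlap, and start 7 held CACATG at 175 bases. None of the 3 motifs was found in the windows of PPARGC1B, PPRC1, PPARA, PPARD, NRIP1 or RXRA, which covers only these letters in these 250 bases.

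The values are deposited signals on a linear scale, made with RMA, and every difference below is one of log2 signals fitted with limma and adjusted by Benjamini and Hochberg over all 22215 probe sets. "Rose" and "fell" are used for an adjusted p under 0.05, and SD is over the 4 arrays of an arm. Median signals of the 8 arrays lay between 137 and 142, and the median log2 difference over all probe sets was -0.0047. Each test compared a probe set, or the mean of a gene's probe sets, with itself between arrays. Probes bind with different strength, so signal levels of different probe sets can be compared only roughly. Summed signals of a list rest mostly on its probe sets of highest signal. The excess of 3′ over 5′ log2 signal in the ACTB control probe sets, which grows as labelled RNA gets shorter towards the 5′ end, was 2.19 ± 0.18 log2 units (SD, n = 4) on the control arrays and 2.53 ± 0.11 on the PGC1α arrays (exact two-sided permutation p = 0.0286, the smallest that 4 against 4 arrays can give). The same excess for GAPDH was 0.17 ± 0.026 and 0.18 ± 0.021 (exact permutation p = 0.571). Every PGC1α array had a larger ACTB excess than every control array. In fits with that excess as a covariate, it and the arm therefore cannot be told apart.

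With the PGC1α hairpins, the receptor partners of PGC1α differed from the controls in both directions. PPARGC1A, ESRRA, 1 probe set of ESRRG and 1 of RXRA fell, whereas PPARG and both probe sets of the corepressor NRIP1 rose, and PPRC1, PPARA and PPARD did not pass the threshold. Over the 16 member probe sets, 8 were called, against 18.0% of all probe sets. Of these, 3 were higher (9.49% of all probe sets) and 5 lower (8.46% of all). The 4 PGC1α arrays did not overlap the 4 control arrays for 10 of the 16, as was so for 24.0% of all probe sets. The targeted gene is 1 of the 16, and the members were listed with results of these data in view.

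**Figure D1:**
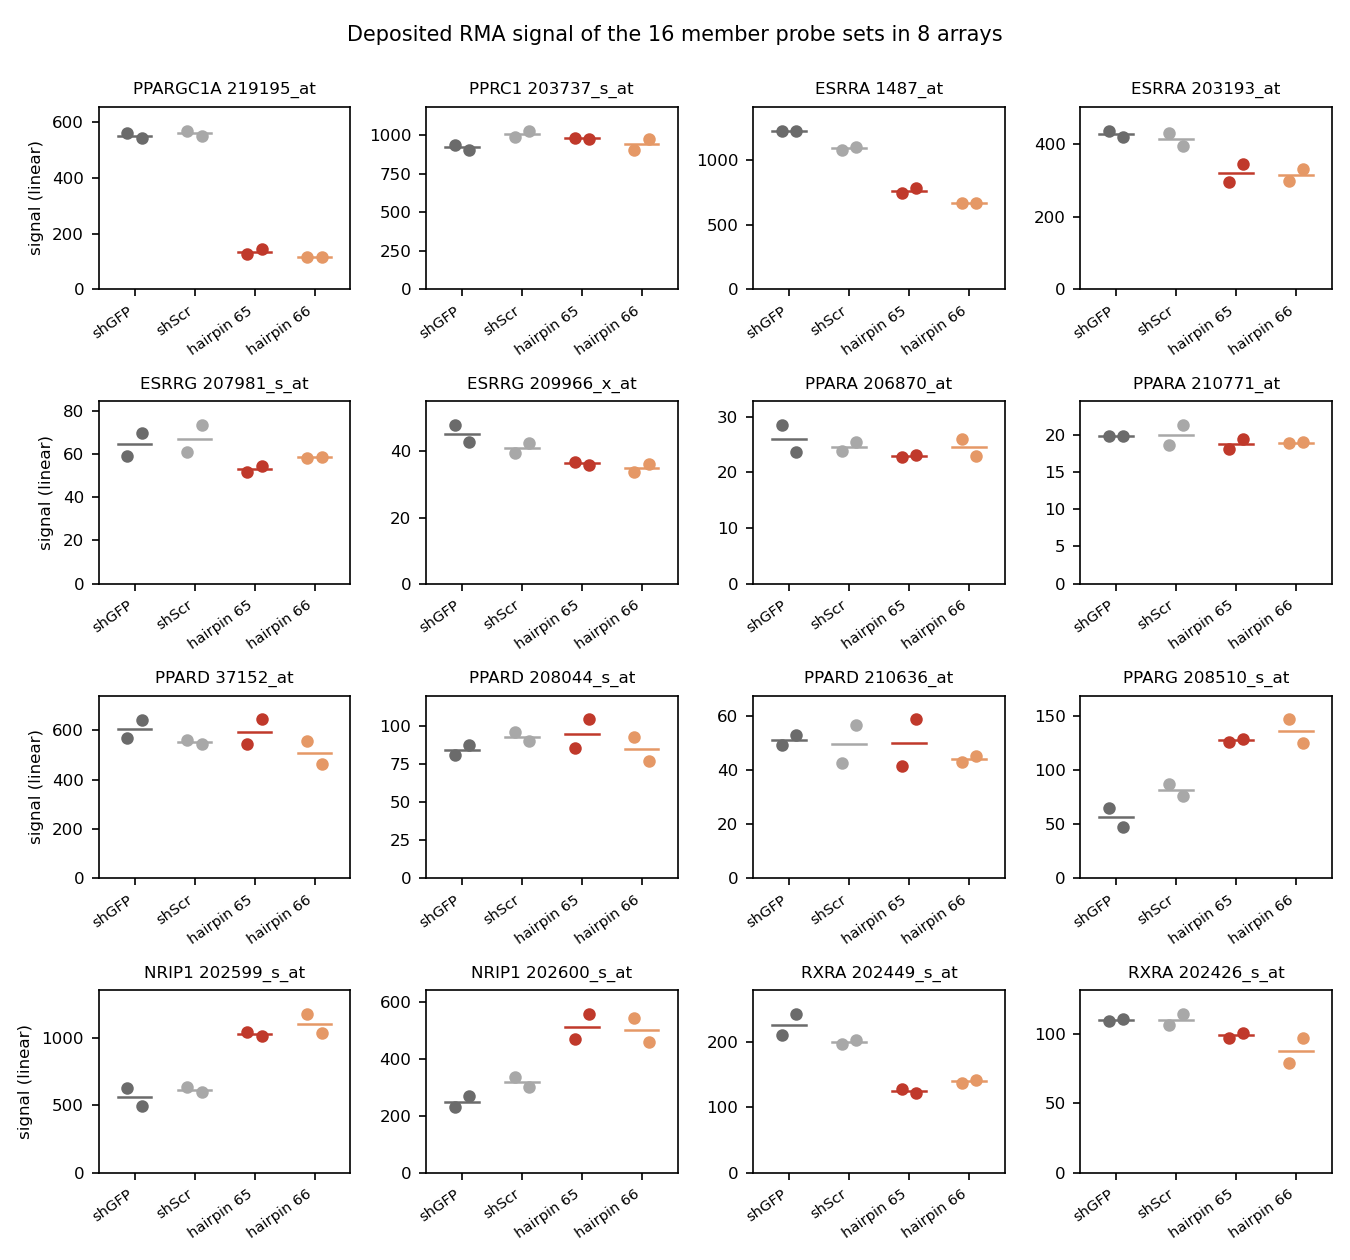
Deposited signal (linear scale, each axis from 0) of the 16 member probe sets on the 8 arrays, by hairpin; points are arrays and bars the mean of the 2 arrays of a hairpin. PPARGC1A, both ESRRA probe sets and RXRA 202449_s_at are lower on the 4 PGC1α arrays, and PPARG and both NRIP1 probe sets are higher, with no overlap of the arms.

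Of the coactivators, PPARGC1A is the gene the hairpins target. Its only probe set, 219195_at, read 559.7 and 543 with shGFP, 570.2 and 551 with shScr, 126 and 144 with hairpin 65, and 114 and 115 with hairpin 66. All 4 PGC1α arrays lay far below all 4 control arrays, and the controls were tightly grouped. The mean was 556 ± 11.7 (SD, n = 4) in the controls and 125 ± 13.9 with the PGC1α hairpins. PPARGC1A thus fell 4.48-fold to 22.3% of the control signal, a log2 difference of -2.16 (SE 0.0766, adjusted p = 6.79e-07), and the exact two-sided permutation p over arrays was 0.0286. That is the smallest p that 4 against 4 arrays can give, reached wherever the arms do not overlap, and it takes each array as a separate unit.

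PPRC1 encodes the PGC1-related coactivator, a family member induced by serum that works with NRF factors on genes of respiration and growth. It read 938 and 906 with shGFP, 989.6 and 1032 with shScr, 986 and 979 with hairpin 65, and 902 and 979 with hairpin 66. The arms overlapped throughout. The log2 difference was -0.0061 with a 95% interval from -0.14 to 0.13 (adjusted p = 0.964), so a change of either sign within that interval could not be told from none on these arrays. PPARGC1B, which encodes the close relative PGC1β, was not measured by a probe set of its own and is not analysed here.

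ESRRA encodes ERRα, an orphan receptor that needs no known natural ligand and depends on PGC1 coactivators for its activity on mitochondrial genes. Probe set 1487_at of ESRRA read 1221 and 1228 with shGFP, 1079 and 1104 with shScr, 743 and 781 with hairpin 65, and 666 and 663 with hairpin 66. Probe set 203193_at read 438, 421, 432 and 396 on the control arrays in the same order, then 297 and 345 with hairpin 65 and 298 and 332 with hairpin 66. On both probe sets the lowest control array stood above the highest PGC1α array. The mean on 1487_at went from 1158 ± 77.8 (SD, n = 4) to 714 ± 58.4, and ESRRA fell 1.62-fold there (log2 -0.70, SE 0.0744, adjusted p = 1.73e-04). The fall on 203193_at was smaller, from 421 ± 18.6 to 318 ± 24.4, or 1.33-fold (log2 -0.41, SE 0.0669, adjusted p = 0.00228). Its call ended with the ACTB difference as a covariate (adjusted p = 0.136) and with a fold minimum of 1.2 (adjusted p = 0.419), while that of 1487_at held in both.

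ESRRG encodes ERRγ, a receptor of the same family known from heart, brain and other tissues of high oxidative demand. Its probe sets gave low signals, and no detection calls were used, so whether they stand above background is unknown here. On 209966_x_at, ESRRG read 48.0 and 42.8 with shGFP, 39.4 and 42.6 with shScr, 36.9 and 35.8 with hairpin 65, and 33.8 and 36.1 with hairpin 66. The highest PGC1α array was below the lowest control array by a small margin. The fall was 1.21-fold, from 43.2 ± 3.57 to 35.7 ± 1.30 (log2 -0.27, SE 0.0673, adjusted p = 0.0186). This call was lost without replicate 1 of hairpin 66 (adjusted p = 0.0555), with the ACTB covariate (log2 -0.10, adjusted p = 0.697), with a fold minimum of 1.2 (adjusted p = 1), with the 2 arrays of a hairpin averaged (adjusted p = 0.125), and with hairpin 65, hairpin 66 or shGFP left out (adjusted p = 0.0866, 0.137 and 0.0875). The suffix x_at marks probes that may also bind other transcripts. On 207981_s_at the ESRRG signal was 51.4 to 58.6 with the PGC1α hairpins and 59.0 to 73.4 in the controls. These arms also did not overlap, but the difference of -0.24 (95% interval -0.42 to -0.054) missed the threshold (adjusted p = 0.0770), and passed it only without replicate 1 of shGFP among the single arrays left out (adjusted p = 0.0486). The mean of both ESRRG probe sets was called (log2 -0.26, SE 0.0530, adjusted p = 0.00701).

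The PPAR receptors sense fatty acids and their derivatives and bind DNA together with an RXR. PPARG encodes PPARγ, the main regulator of fat cell differentiation and lipid storage. Its probe set 208510_s_at read 64.9 and 47.5 with shGFP, 86.6 and 75.7 with shScr, 126 and 129 with hairpin 65, and 147 and 125 with hairpin 66. Every PGC1α array was above every control array, and the control arrays were spread more widely than the others, with shGFP at the low end. The control signals lay below the median signal of each array. No detection calls were used, so whether they stand above background is unknown here. PPARG rose 1.96-fold, from 68.7 ± 16.7 to 132 ± 10.3 (SD, n = 4; log2 0.97, SE 0.158, adjusted p = 0.00224). With the ACTB difference as a covariate the log2 difference was nearly the same, 0.96, and missed the threshold (adjusted p = 0.123).

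PPARD encodes PPARδ, which drives fatty acid oxidation in muscle and is found in most tissues. Its probe set 37152_at read 569 and 643 with shGFP, 561 and 545 with shScr, 543 and 644 with hairpin 65, and 554 and 463 with hairpin 66. The arms overlapped, and the lowest and the highest of the 8 values were both on PGC1α arrays. The log2 difference was -0.079 (95% interval -0.30 to 0.14, adjusted p = 0.659). The other PPARD probe sets gave 0.017 (interval -0.19 to 0.23) and -0.11 (interval -0.37 to 0.16), and neither passed the threshold (adjusted p = 0.938 and 0.629).

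PPARA encodes PPARα, the receptor behind the fasting response of the liver. On 206870_at it read 28.5 and 23.6 with shGFP, 23.8 and 25.4 with shScr, 22.8 and 23.1 with hairpin 65, and 26.1 and 22.9 with hairpin 66. The second probe set, 210771_at, stayed between 18.2 and 21.3 on the 8 arrays. Both sets gave low signals on all 8 arrays, and the arms overlapped on both. The log2 differences were -0.093 (95% interval -0.26 to 0.076, adjusted p = 0.471) and -0.078 (interval -0.20 to 0.048, adjusted p = 0.409).

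RXRA encodes the retinoid X receptor α, an RXR and so a partner of the PPARs, the vitamin D receptor and the liver X receptors. Its probe set 202449_s_at read 210.1 and 243 with shGFP, 196 and 204 with shScr, 127 and 122 with hairpin 65, and 138 and 142 with hairpin 66. The PGC1α arrays formed a narrow group well below the controls. RXRA fell 1.61-fold on this probe set, from 213 ± 20.7 to 132 ± 9.13 (log2 -0.69, SE 0.0794, adjusted p = 2.90e-04). The second RXRA probe set, 202426_s_at, moved less: 106 to 115 in the controls and 79.3 to 101 with the PGC1α hairpins. The arms did not overlap there either, and the difference of -0.24 (95% interval -0.41 to -0.066) missed the threshold (adjusted p = 0.0610), passing it with quantile normalization (adjusted p = 0.0392) or after removal of the 40% of probe sets with the lowest mean signal (adjusted p = 0.0340). The 2 probe sets therefore differ in the size of the change that they report for RXRA, and the mean of both gave a log2 difference of -0.46 (SE 0.0561, adjusted p = 3.26e-04).

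NRIP1 encodes RIP140, a corepressor of nuclear receptors that is known to restrain genes of oxidative metabolism in fat and muscle. On 202599_s_at NRIP1 read 633 and 494 with shGFP, 639 and 597 with shScr, 1048 and 1018 with hairpin 65, and 1183 and 1037 with hairpin 66. On 202600_s_at it read 229 and 270.3 with shGFP, 338 and 302 with shScr, 469 and 559 with hairpin 65, and 544 and 460.5 with hairpin 66. Every PGC1α array was above every control array on both. The rise was 1.82-fold on the first, from 591 ± 67.4 to 1071 ± 75.3 (log2 0.86, SE 0.0897, adjusted p = 1.52e-04), and 1.79-fold on the second, from 285 ± 46.3 to 508 ± 50.6 (log2 0.84, SE 0.118, adjusted p = 8.94e-04). Unlike ESRRA and RXRA, the 2 NRIP1 probe sets thus reported changes of much the same size. With the ACTB difference as a covariate, the call on 202600_s_at was lost (log2 0.50, adjusted p = 0.138) and that on 202599_s_at was kept.

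**Figure D2:**
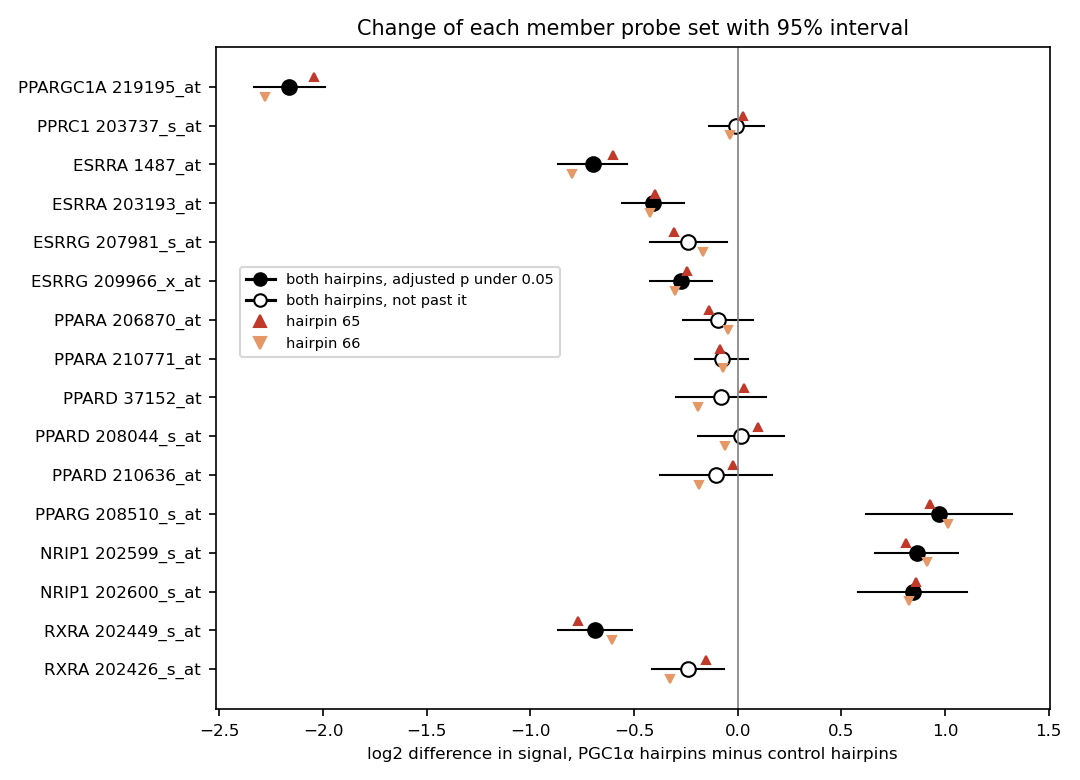
Log2 difference in signal, PGC1α hairpins minus control hairpins, of each member probe set (circles, filled where the adjusted p is under 0.05) with its 95% interval, and of each hairpin alone (triangles). PPARGC1A lies at -2.16, ESRRA 1487_at and RXRA 202449_s_at near -0.7, and PPARG and NRIP1 between 0.84 and 0.97.

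Each PGC1α hairpin was also set against the 4 control arrays, in a fit with 1 mean per hairpin. The 2 comparisons share the control arrays, so their values are given side by side. With hairpin 65, 3 member probe sets rose and 4 fell (18.2% of all probe sets were called), and with hairpin 66, 3 rose and 6 fell (17.2% of all). PPARGC1A was lower by 4.13-fold with hairpin 65 and by 4.86-fold with hairpin 66. The fall of ESRRA on 1487_at was 1.52-fold and 1.74-fold, and that of RXRA on 202449_s_at was 1.70-fold and 1.52-fold. PPARG rose 1.90-fold (adjusted p = 0.00298) and 2.02-fold (adjusted p = 0.00199). NRIP1 rose 1.76-fold and 1.88-fold on 202599_s_at, and 1.81-fold and 1.77-fold on 202600_s_at. Each of these was past the threshold with both hairpins.

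The smaller changes were less even. ESRRA on 203193_at had log2 differences of -0.40 with hairpin 65 (adjusted p = 0.0164) and -0.42 with hairpin 66 (adjusted p = 0.0129). Without shGFP replicate 1 or hairpin 65 replicate 1 the first was no longer called (adjusted p = 0.0501 and 0.102), and without hairpin 66 replicate 1 the second was not (adjusted p = 0.101). ESRRG on 209966_x_at was past the threshold with hairpin 66 (log2 -0.30, adjusted p = 0.0251) and not with hairpin 65 (log2 -0.25, adjusted p = 0.0526). The first of these was lost without shGFP replicate 1, shScr replicate 2 or either hairpin 66 array (adjusted p up to 0.149), and the second passed without shGFP replicate 2 (adjusted p = 0.0445). ESRRG on 207981_s_at passed with neither hairpin (log2 -0.31 and -0.17, adjusted p = 0.0698 and 0.320), although hairpin 65 passed without shScr replicate 1 (adjusted p = 0.0381) and with the replicate block (adjusted p = 0.0391). RXRA on 202426_s_at was called with hairpin 66 alone (log2 -0.33, adjusted p = 0.0383, against -0.15 and 0.288 with hairpin 65), and 7 of the 8 fits that left out 1 array lost that call, the exception being the fit without hairpin 66 replicate 2. Leaving out 1 array of a PGC1α hairpin also cut its count over all probe sets, from 4054 to 2580 or 2298 for hairpin 65 and from 3815 to 2215 or 2295 for hairpin 66.

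Hairpin 65 and hairpin 66 were then compared directly. limma called 0 of the 22215 probe sets, or 0% of them, although 1518 had an unadjusted p under 0.05, and with a trend and robust variance the counts were 0 and 1645. Among the members 2 probe sets had an unadjusted p under 0.05, PPARGC1A and ESRRA 1487_at. For PPARGC1A, hairpin 65 minus hairpin 66 was 0.24 (SE 0.0773, adjusted p = 0.674), so the residual signal was 1.18-fold higher with hairpin 65. ESRRA on 1487_at was 1.15-fold higher with hairpin 65 (log2 0.20, SE 0.0611, adjusted p = 0.671). Both genes were thus lower with hairpin 66, by an amount that did not pass the threshold over all probe sets. PPARG differed by -0.085 (SE 0.153, adjusted p = 0.927) and RXRA on 202449_s_at by -0.16 (SE 0.0829, adjusted p = 0.766).

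The controls were less alike for some members. Between shGFP and shScr 5.56% of all probe sets were called (1235 of 22215), and none of the 16 member probe sets was, while 3 had an unadjusted p under 0.05: ESRRA 1487_at, PPARG and NRIP1 202600_s_at. PPARG was 1.46-fold lower with shGFP than with shScr (log2 -0.55, SE 0.153, adjusted p = 0.0958). NRIP1 on 202600_s_at was 1.28-fold lower with shGFP (log2 -0.36, SE 0.131, adjusted p = 0.182), and ESRRA on 1487_at was 1.12-fold higher with it (log2 0.17, SE 0.0611, adjusted p = 0.186). With a trend and robust variance, PPARG and NRIP1 202600_s_at passed the threshold between the controls (adjusted p = 0.0204 and 0.0404), and PPARG also passed without shGFP replicate 1 (log2 -0.77, adjusted p = 0.0453). For PPARGC1A the controls differed by -0.025 (SE 0.0773, adjusted p = 0.905). The levels of PPARG and NRIP1 with the PGC1α hairpins were nonetheless above those with either control.

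**Figure D3:**
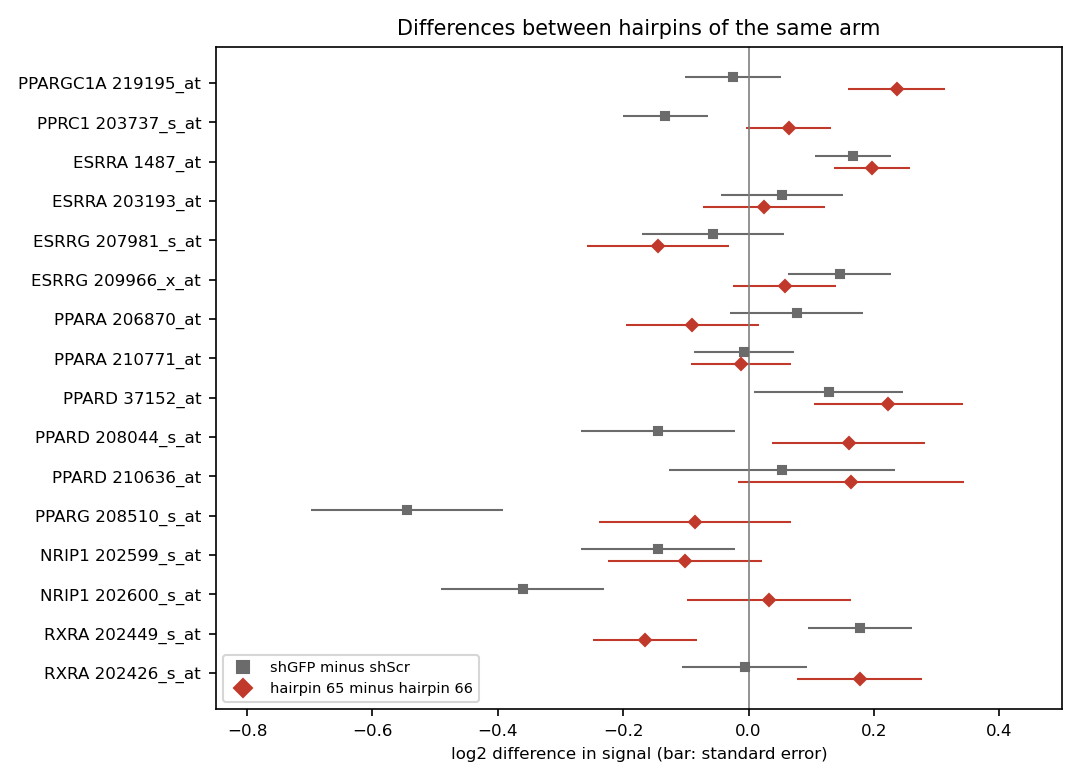
Log2 difference in signal between hairpins of the same arm, with standard errors, for the 16 member probe sets: shGFP minus shScr (squares) and hairpin 65 minus hairpin 66 (diamonds). PPARG is farthest from 0 between the controls, at -0.55, and PPARGC1A between the PGC1α hairpins, at 0.24.

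The probe sets whose log2 signal followed PPARGC1A most closely over the 8 arrays were those of MEAF6, a subunit of histone acetyltransferase complexes (Pearson r = 0.998), CAPN3, a calpain protease expressed in melanocytes (0.998), and SPHK1, which makes sphingosine 1-phosphate (0.998). The most opposed were LEF1, a transcription factor of the Wnt pathway (-0.998), TMEM47 (-0.997) and CREB3L2 (-0.997). CAPN3 was 2.55-fold lower and LEF1 1.67-fold higher with the PGC1α hairpins. Such values are common where 2 arms differ, since 1044 of the 22214 other probe sets had r over 0.9 with PPARGC1A and 1078 had r under -0.9. ESRRA on 1487_at was followed by EMC3 (0.999), KLHL22 (0.997) and RPS6KA2 (0.996). PPARG was followed by MT1F, a metallothionein (0.991), ID4 (0.989) and CBX6 (0.987), and NRIP1 on 202599_s_at by SUSD6 (0.997), TMEM47 (0.995) and the death receptor FAS (0.993). The points share arrays and arms, and these are descriptions with no test.

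Genes around the members were grouped in 5 lists, each gene by its probe set of highest mean signal. By that rule 20.6% of the 11963 genes were called, 10.8% higher and 9.79% lower, with a median log2 difference of -0.0045. Targets that PGC1 proteins switch on with ERR or NRF factors were mostly lower. Of 26 such genes measured, with ESRRA among them, 19 fell and 2 rose, and the median was -0.27. TFAM, which packages and transcribes mitochondrial DNA, fell 2.02-fold, from 2088 ± 42.6 to 1035 ± 70.3 (SD, n = 4; log2 -1.02, SE 0.0596, adjusted p = 5.07e-06). UQCRC1, a core subunit of respiratory complex III, fell 1.36-fold (log2 -0.45, SE 0.0480, adjusted p = 1.85e-04). SLC25A4, the ADP and ATP carrier of the inner membrane, fell 1.39-fold (log2 -0.47, SE 0.0521, adjusted p = 2.19e-04), but its second probe set gave 0.063. Also lower were IDH3A (1.64-fold), UQCRC2 (1.53-fold), ACADM (1.48-fold), OGDH (1.45-fold), CS (1.37-fold), TWNK (1.31-fold), ATP5F1B and COX6C (1.24-fold each), COX5B and CYCS (1.21-fold each), MFN2 and MAOB (1.2-fold each), IDH3B (1.16-fold), and NDUFS1 and SLC25A20 (1.15-fold each). Of the 8 fits without a single array, 7 lost the call of IDH3B, 6 those of NDUFS1 and SLC25A20, and 5 that of MAOB. The falls of the list numbered 15 to 18 in these fits. VEGFA, the angiogenic growth factor, rose 1.97-fold (log2 0.97, SE 0.0745, adjusted p = 2.43e-05). UCP2, an inner membrane carrier, rose 1.75-fold (log2 0.81, SE 0.149, adjusted p = 0.00446), with a second probe set at -0.047 and with shGFP below shScr by 0.59 (adjusted p = 0.0160). The list held 6 falls and 1 rise with the ACTB difference as a covariate and with a fold minimum of 1.2, 9 and 1 with the arrays of a hairpin averaged, and 11 and 1 with hairpin 65 left out. Over all 22215 probe sets these settings, in the same order, called 678, 769, 1337 and 1982, against 3989 without them. The counts of each list in such settings stand beside these totals.

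Targets of the PPAR receptors did not move one way. Of 27 measured, 2 rose and 5 fell (over all genes 10.8% and 9.79%), and the median was -0.020. ANGPTL4, a secreted inhibitor of lipoprotein lipase, rose 2.17-fold, from 157 ± 14.8 to 342 ± 54.9 (log2 1.12, SE 0.116, adjusted p = 1.55e-04), and the fatty acid binding protein FABP5 rose 1.31-fold (log2 0.39, SE 0.0687, adjusted p = 0.00352). ACAA1, a thiolase of peroxisomes, fell 1.24-fold (log2 -0.31, SE 0.0651, adjusted p = 0.00861). CPT1A, which admits fatty acids to mitochondria, fell 1.22-fold (log2 -0.29, SE 0.0668, adjusted p = 0.0138), and HADHA, of the mitochondrial trifunctional protein, also 1.22-fold (log2 -0.28, SE 0.0769, adjusted p = 0.0303). EHHADH fell 1.44-fold, and SLC25A20, which the preceding list also holds, 1.15-fold. With the ACTB covariate, with averaged arrays and with the fold minimum, 1 rise was past the threshold and the 5 falls were not. The falls were also lost with hairpin 66 left out, and numbered 1 with shGFP left out (4 rises), 3 with hairpin 65 left out, 3 with hairpin as a random block, and 2 to 5 with single arrays left out. The rises numbered 2 to 4 with single arrays left out, 4 without replicate 2 of hairpin 66.

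Other receptors and factors that PGC1 proteins bind rose more often than they fell, 7 against 1 of 23 measured (over all genes 10.8% and 9.79%), with a median of 0.085. VDR, the vitamin D receptor and a partner of RXRA, rose 2.08-fold, from 399 ± 33.4 to 830 ± 58.0 (log2 1.06, SE 0.0760, adjusted p = 1.75e-05), and its 4 probe sets spanned 0.16 to 1.06. NR1H3, the liver X receptor α, rose 1.33-fold (log2 0.41, SE 0.0630, adjusted p = 0.00167). RARA, the retinoic acid receptor α, also rose 1.33-fold (log2 0.41, SE 0.0698, adjusted p = 0.00266), with its 4 probe sets between -0.045 and 0.41. RARG, the retinoic acid receptor γ, fell 1.16-fold (log2 -0.21, SE 0.0603, adjusted p = 0.0357), with other probe sets up to 0.13. The RARG call was lost in 16 of 25 alternatives, 6 of the 8 single arrays left out among them (adjusted p up to 0.0967). MEF2A (1.30-fold), SOX9 (1.23-fold), NR3C1 (1.22-fold) and RXRB (1.14-fold) also rose. The RXRB call was close to the threshold (adjusted p = 0.0486) and was lost in 21 of 25 alternatives, 7 of the 8 single arrays left out among them. Neither NRF1 (log2 0.025, adjusted p = 0.897) nor GABPA (log2 -0.045, adjusted p = 0.831), the factors that PGC1 proteins use beside ERRα on respiratory genes, passed the threshold. The rises numbered 1 with the ACTB covariate and with the fold minimum, 3 with averaged arrays, 3 with hairpin 66 left out and 4 with shGFP left out.

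Among 21 measured genes of coactivator and corepressor machinery, 1 rose and 3 fell (over all genes 10.8% and 9.79%), and the median was -0.045. The list was thus called about as often as all genes were (20.6%). KAT2B, the acetyltransferase PCAF, fell 2.96-fold, from 3484 ± 885 to 1153 ± 114 (log2 -1.56, SE 0.161, adjusted p = 1.45e-04), and was higher with shGFP than with shScr (log2 0.64, adjusted p = 0.00956). SMARCD3, a subunit of the SWI/SNF chromatin remodelling complex, fell 1.46-fold (log2 -0.55, SE 0.102, adjusted p = 0.00488), and RBBP4 fell 1.19-fold (log2 -0.26, SE 0.0686, adjusted p = 0.0277). The RBBP4 call was lost in 13 of 24 alternatives, 6 of the 8 single arrays left out among them (adjusted p up to 0.0740). The class II deacetylase HDAC5 rose 1.43-fold (log2 0.51, SE 0.0813, adjusted p = 0.00197). The acetyltransferases EP300 (log2 0.086) and CREBBP (-0.084), the Mediator subunit MED1 (0.024) and the deacetylase SIRT1 (0.064) did not pass the threshold (adjusted p = 0.372, 0.505, 0.791 and 0.685). With the ACTB covariate and with the fold minimum this list held 1 fall and the rise was lost, with hairpin 66 left out it held 1 rise and 1 fall, and with the mean per gene 2 rises and 6 falls.

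Of 26 measured genes listed as regulators of PPARGC1A, of its product or of PGC1 targets, 4 rose and 4 fell (over all genes 10.8% and 9.79%). Their median was 0.029. MITF, the melanocyte factor that drives PPARGC1A in melanoma, fell 1.51-fold, from 7419.7 ± 159 to 4918 ± 256 (log2 -0.59, SE 0.0547, adjusted p = 7.22e-05). MITF is known to bind the E-box forms searched above, but its binding was not measured here. PRKAG2, a subunit of the energy sensor AMPK, fell 1.40-fold (log2 -0.49, SE 0.0733, adjusted p = 0.00145), and the CREB coactivator CRTC3 fell 1.13-fold (log2 -0.17, SE 0.0485, adjusted p = 0.0349). TWIST1, which represses PGC1 targets, rose 1.50-fold (log2 0.59, SE 0.0702, adjusted p = 3.51e-04). GSK3B, a kinase linked to PGC1α turnover, rose 1.39-fold (log2 0.47, SE 0.0643, adjusted p = 7.66e-04), and CAMK4, a calcium-dependent kinase, rose 1.44-fold (log2 0.52, SE 0.0799, adjusted p = 0.00157) and was also higher with shGFP than with shScr (log2 0.29, adjusted p = 0.0446). FBXW7 rose 1.31-fold and CRTC1 fell 1.14-fold. The falls numbered 2 in place of 4 with each of the 8 arrays left out in turn, with the replicate block, with hairpin as a random block, with averaged arrays and with hairpin 65, hairpin 66 or shGFP left out, and the calls of CRTC3 and CRTC1 were lost with every single array left out. With the ACTB covariate 1 fall was left and all 4 rises were lost, and with the fold minimum 1 fall and 1 rise were left.

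**Figure D4:**
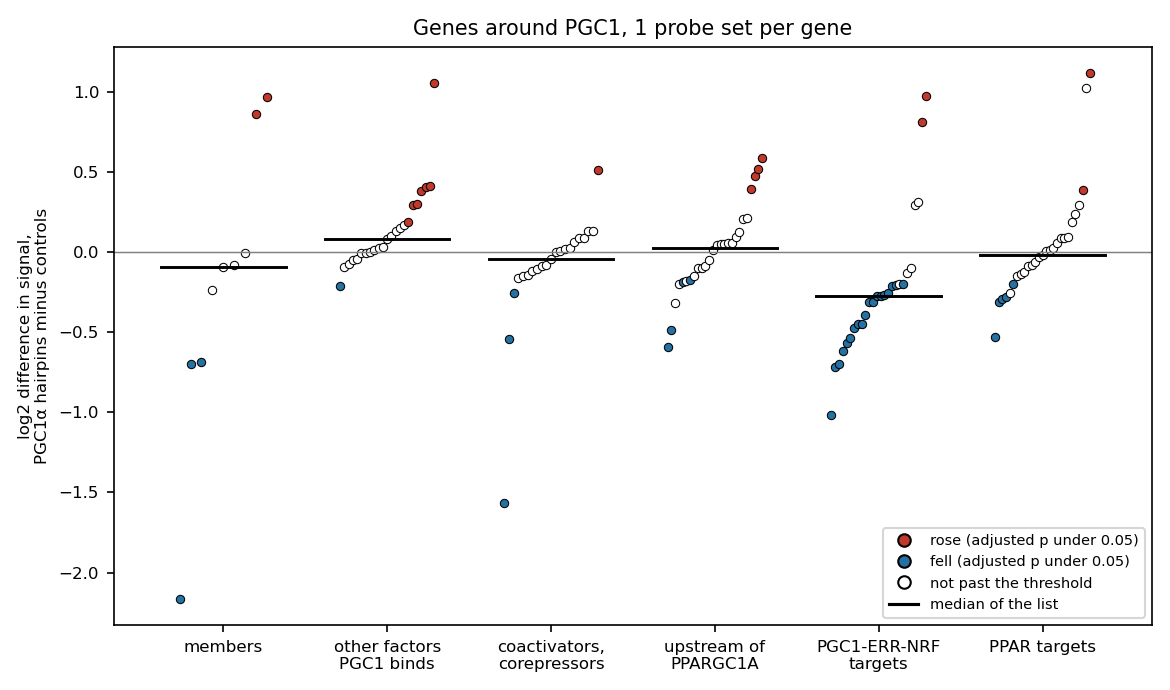
Log2 difference in signal, PGC1α hairpins minus control hairpins, of each measured gene of the members and of 5 lists around them, by the probe set of highest mean signal (red rose, blue fell, white not past the threshold; bar, median). The targets shared with ERR or NRF factors have a median of -0.27, against medians between -0.045 and 0.085 for the other 4 lists.

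Markers of cell types were read beside these results, each gene again by its probe set of highest mean signal. By that rule 10.8% of all genes were called higher and 9.79% lower. Of 9 measured melanocyte markers, 5 fell (CAPN3, PMEL, MITF, S100B and TYRP1) and none rose, and their summed signal was 24203 to 26039 on the control arrays and 16811 to 18373 on the PGC1α arrays. MLANA and GPR143 were low in both arms, at 37.5 ± 9.23 and 17.6 ± 1.48 in the controls, while SOX10 was at 3652 ± 168. The part of the melanocyte markers in the changes of the members was not tested. Epithelial markers held 1 rise (KRT18) and 1 fall (ESRP1) among 10, with EPCAM at 17.9 ± 1.40 and CDH1 at 16.9 ± 1.91 in the controls, and a summed signal of 2952 to 3505 in the controls and 3530.2 to 3985 with the PGC1α hairpins. Of 10 fibroblast markers 1 rose, PDGFRB, with summed signals of 1371 to 2176 and 1801 to 1924. Adipocyte markers held 1 fall among 6 (CIDEC), with ADIPOQ at 14.5 ± 0.880 and FABP4 at 40.7 ± 4.88 in the controls and summed signals of 1732 to 2597 and 2344 to 2508. Of 7 blood cell markers limma called 0, with 1 at an unadjusted p under 0.05 (also 0 and 1 with a trend and robust variance), and summed signals of 290.4 to 319 and 285 to 309.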

How the data were processed

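RNA of 8 samples of A375P cells was hybridised to 1-colour Affymetrix arrays after conversion to biotin-labelled cRNA from an oligo-dT primer, per the labels' protocols. The deposited table holds an intensity for each of 22277 probe sets, linear rather than log2. Per the submitters' processing notes the authors ran RMA, whose version is not given in the sources used here. Array number, not read depth, limits the precision.

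Values were taken as log2, and all 22215 probe sets other than 62 array controls were tested singly with limma 3.58.1 in R 4.3.3, with p-values adjusted by Benjamini and Hochberg and a threshold of 0.05. The arms (4 against 4 arrays) were compared in a 2-group fit with 6 residual degrees of freedom. A fit with 1 mean per hairpin (4 residual degrees of freedom) gave each hairpin against the controls and the contrasts within an arm. Folds are powers of mean log2 differences. The fits were checked on simulated data: between the arms, 56.4% of 1.25-fold and 87.2% of 1.5-fold changes were recovered, with 7.09% of calls false, and for hairpin 65 against the controls 20.4% and 69.6%, with 4.03% false. Far fewer probe sets were given a change there than were called between the real arms. The simulated noise was independent between arrays and held no difference between hairpins of an arm. The real arrays do hold such differences (5.56% of probe sets were called between shGFP and shScr), so these shares need not apply to them. Since no label names separate cultures, p-values reflect the spread between these arrays only, and that may be technical.

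Symbols came from the array's probe table, where 19070 probe sets carry 1 symbol, 1043 carry several and 2164 carry none. None was updated against RefSeq (GRCh38.p14). Genes and lists (5 pathway and 5 marker lists) were chosen with earlier results of these data known. Named genes are all member probe sets and, of each pathway list, the 3 called genes of smallest p in each direction, with other called genes by fold only and nearest patterns by Pearson r. The uncalled factors, enzymes and markers that are named were chosen after their values were seen.

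Same-numbered samples showed little shared deviation, and the correlations of same-numbered deviations lay between -0.10 and 0.027. These values cannot settle whether the samples were paired by number. Alternatives were 1 probe set or the mean per gene, a signal filter, quantile and cyclic loess normalization, a trend and robust variance, no s_at or x_at sets, a replicate block, hairpin as a random block, averaged arrays, the ACTB difference as a covariate, a fold minimum of 1.2, and each array or hairpin left out. A crossed replicate block was added after seeing the data.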

Additional observations from a re-analysis of the deposited data

Results flagged for a closer look

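PPRC1 on 203737_s_at had 1 PGC1α array apart from the other 3. Hairpin 66 replicate 1 was at 902, the lowest, and the others were at 979 to 986, so its gap to the nearest took up 0.924 of the arm's range, above Dixon's critical value for 4 samples at 95%. The same array was highest for PPARA on 206870_at, at 26.1 against 22.8 to 23.1, a share of 0.898 of the range. Chance flags about 1 in 20 such groups, and neither gene passed the threshold in any comparison of the arms.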

How the results depend on the processing

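Between the arms, the calls of PPARGC1A, ESRRA 1487_at, NRIP1 202599_s_at and RXRA 202449_s_at held under every alternative that kept their probe set, and no called member changed direction. The 8 member calls were also kept, with 0 lost, under the replicate block (3624 probe sets called over all, against 3989). Same-numbered samples are known to share only a number. A crossed replicate block (3643 called) also kept the 8 calls. With 1 probe set per gene 2659 of 11963 genes were called, and with the mean per gene 2658 of 11963. Without suffix s_at or x_at 1888 of 11813 sets were called. Of all 22215 sets, 1337 were called with the arrays of a hairpin averaged, 678 with the ACTB difference as a covariate and 769 with a fold minimum of 1.2. With hairpin 65 left out 1982 were called, and with hairpin 66 left out 1964. Without s_at or x_at sets 0 of the 7 member sets left were higher, since all 3 higher sets carry s_at, and with the ACTB covariate 1 of 16 was. Members lower numbered 3 of 9 with 1 probe set per gene and 3 of 7 without s_at or x_at sets. They numbered 3 of 16 with the ACTB covariate and with the fold minimum, against 5 of 16 without these settings. Uncalled differences changed sign: PPRC1 was 0.047 with the ACTB covariate, 0.060 with shScr and 0.026 with hairpin 66 left out, and -0.037 to 0.026 with single arrays left out. PPARA 206870_at was 0.019 with the ACTB covariate. PPARD 37152_at was 0.032 with hairpin 66 left out and -0.16 to 0.0013 with single arrays left out. PPARD 208044_s_at was -0.00090 with quantile normalization, -0.23 with the ACTB covariate, -0.056 with shGFP and -0.063 with hairpin 65 left out, and -0.058 to 0.087 with single arrays left out. With single arrays left out, 2298 to 3865 probe sets were called for hairpin 65 and 2215 to 3686 for hairpin 66 (members lower 3 to 5), and PPARG between hairpins 65 and 66 was -0.20 to 0.033. Other small differences between hairpins of 1 arm, seen in their plot, also changed sign for some members. Between the controls 2439 of 22215 probe sets were called with a trend and robust variance (members lower 2), and 402 to 1065 with single arrays left out (members lower 0 to 1). Without the 40% of lowest signal 2044 of 13329 were called (members lower 1 of 11). Other than the smaller number of probe sets or samples in some of these fits, the cause was not tested. Of 46 called list genes, 36 lost their call with the ACTB covariate, 25 with averaged arrays, 35 with the fold minimum and 3 with the replicate block, and 0 changed sign. Since the ACTB difference goes with the arm, a call lost with that covariate does not show whether RNA quality or the hairpins lie behind it.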
